A study of Mus musculus with 2 samples.

Results

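CTCF binding was examined at 10 genes of Notch signalling and secretory cell fate in newborn mouse intestine: Atoh1, Gfi1, Spdef, Hes1, Dll1, Dll4, Notch1, Notch2, Jag1 and Rbpj. The genes were chosen for their roles, with earlier results of these data known. Every CTCF peak was taken whose summit lay in the gene body or within 50 kb of any transcription start site (TSS) of the gene. The summit is the position of highest enrichment, and genes and starts are those of GENCODE M21. That rule gave 89 of the 73465 peaks of the authors' optimal list, which is labelled as thresholded for reproducibility. How the threshold used the 2 replicates is not given. All 10 genes had at least 1 summit in the window.

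The samples were whole intestines of mice of strain B6NCrl at postnatal day 0, profiled by chromatin immunoprecipitation of CTCF followed by sequencing. There was 1 group of 2 biological replicates, each a library from powdered intestines pooled from several dissections. The labels give both replicates the same biosample, so their spread may be technical. No treatment, genotype or age is compared, sex was not collected, and peak lists cannot be checked against expression markers of the tissue. All cell types of the organ are mixed, so a peak may come from any of them.

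Notch signalling passes between touching cells. Ligands such as Dll1, Dll4 and Jag1 on one cell engage receptors such as Notch1 and Notch2 on its neighbour, and the released receptor domain joins the DNA-binding protein Rbpj to switch on repressors such as Hes1. In the intestinal epithelium Hes1 holds down Atoh1, the factor that starts the secretory programme, and Gfi1 and Spdef act after Atoh1 in goblet and Paneth cells. CTCF, which recognises a long DNA motif through its zinc fingers, holds the ends of chromatin loops and insulates genes from neighbouring enhancers.

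A matrix of 19 bases for the CTCF motif was built from strong peaks outside the windows of the 10 genes, and a summit was said to hold a motif when a match lay within 100 bases of it. For 9 of the 10 genes the site below is shown because it is the match at the strongest motif-bearing summit of the gene. Each is read 5′ to 3′ on the strand of the motif, with the 19 matched bases in capitals and 20 bases of the mm10 reference on each side.
Atoh1: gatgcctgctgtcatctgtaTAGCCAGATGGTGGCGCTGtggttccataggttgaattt
Gfi1: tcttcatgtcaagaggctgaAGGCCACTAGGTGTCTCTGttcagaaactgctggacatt
Spdef: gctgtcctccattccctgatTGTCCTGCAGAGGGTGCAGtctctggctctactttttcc
Hes1: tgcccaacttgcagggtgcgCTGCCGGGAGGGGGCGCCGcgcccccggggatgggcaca
Dll1: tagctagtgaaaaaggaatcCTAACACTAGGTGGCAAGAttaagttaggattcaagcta
Dll4: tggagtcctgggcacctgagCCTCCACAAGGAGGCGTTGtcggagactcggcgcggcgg
Notch1: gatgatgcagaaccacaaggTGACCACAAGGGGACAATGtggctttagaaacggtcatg
Jag1: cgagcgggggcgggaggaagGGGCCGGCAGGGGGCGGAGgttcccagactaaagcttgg
Rbpj: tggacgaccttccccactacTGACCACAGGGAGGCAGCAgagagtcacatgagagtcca

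The sites shown matched the commonest base of the matrix at 10 of 19 positions for Dll1, at 12 for Spdef, Hes1, Dll4 and Rbpj, and at 13 for Atoh1, Gfi1, Notch1 and Jag1. In 8 of these 9 genes the site belonged to the strongest summit of the window. Jag1 was the exception, because its printed site lay at its weakest summit. Counted on mm10, the Atoh1 site lies on chromosome 6 from 64685199 to 64685217 on the plus strand, the Gfi1 site on chromosome 5 from 107684568 to 107684586 on the plus strand, and the Spdef site on chromosome 17 from 27761844 to 27761862 on the minus strand. The Hes1 site covers chromosome 16 from 30067166 to 30067184 on the minus strand, inside a coding exon. The Dll1 site covers chromosome 17 from 15378141 to 15378159 and the Dll4 site chromosome 2 from 119288659 to 119288677, both on the minus strand. The Notch1 site spans chromosome 2 from 26561826 to 26561844 on the minus strand and the Jag1 site chromosome 2 from 137114808 to 137114826 on the plus strand. The Rbpj site spans chromosome 5 from 53672555 to 53672573 on the minus strand.

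Peak signal is the authors' own enrichment value for each peak, and it is compared here only among peaks of the same list. Values of the optimal and replicate lists may not share a scale. The 89 summits had signals from 6.42 to 577 with a median of 45.6, against a median of 76.0 over the optimal list. Their median signal percentile was 34.7, and 33 of the 89 lay above the median of the list. Weak summits thus made up most of those at these genes: 16 of 89 fell in the weakest decile of the list and 8 in the strongest. Of the 33 above the median, Spdef held 7, and Dll4, Notch1 and Rbpj held 5 each.

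**Figure D1:**
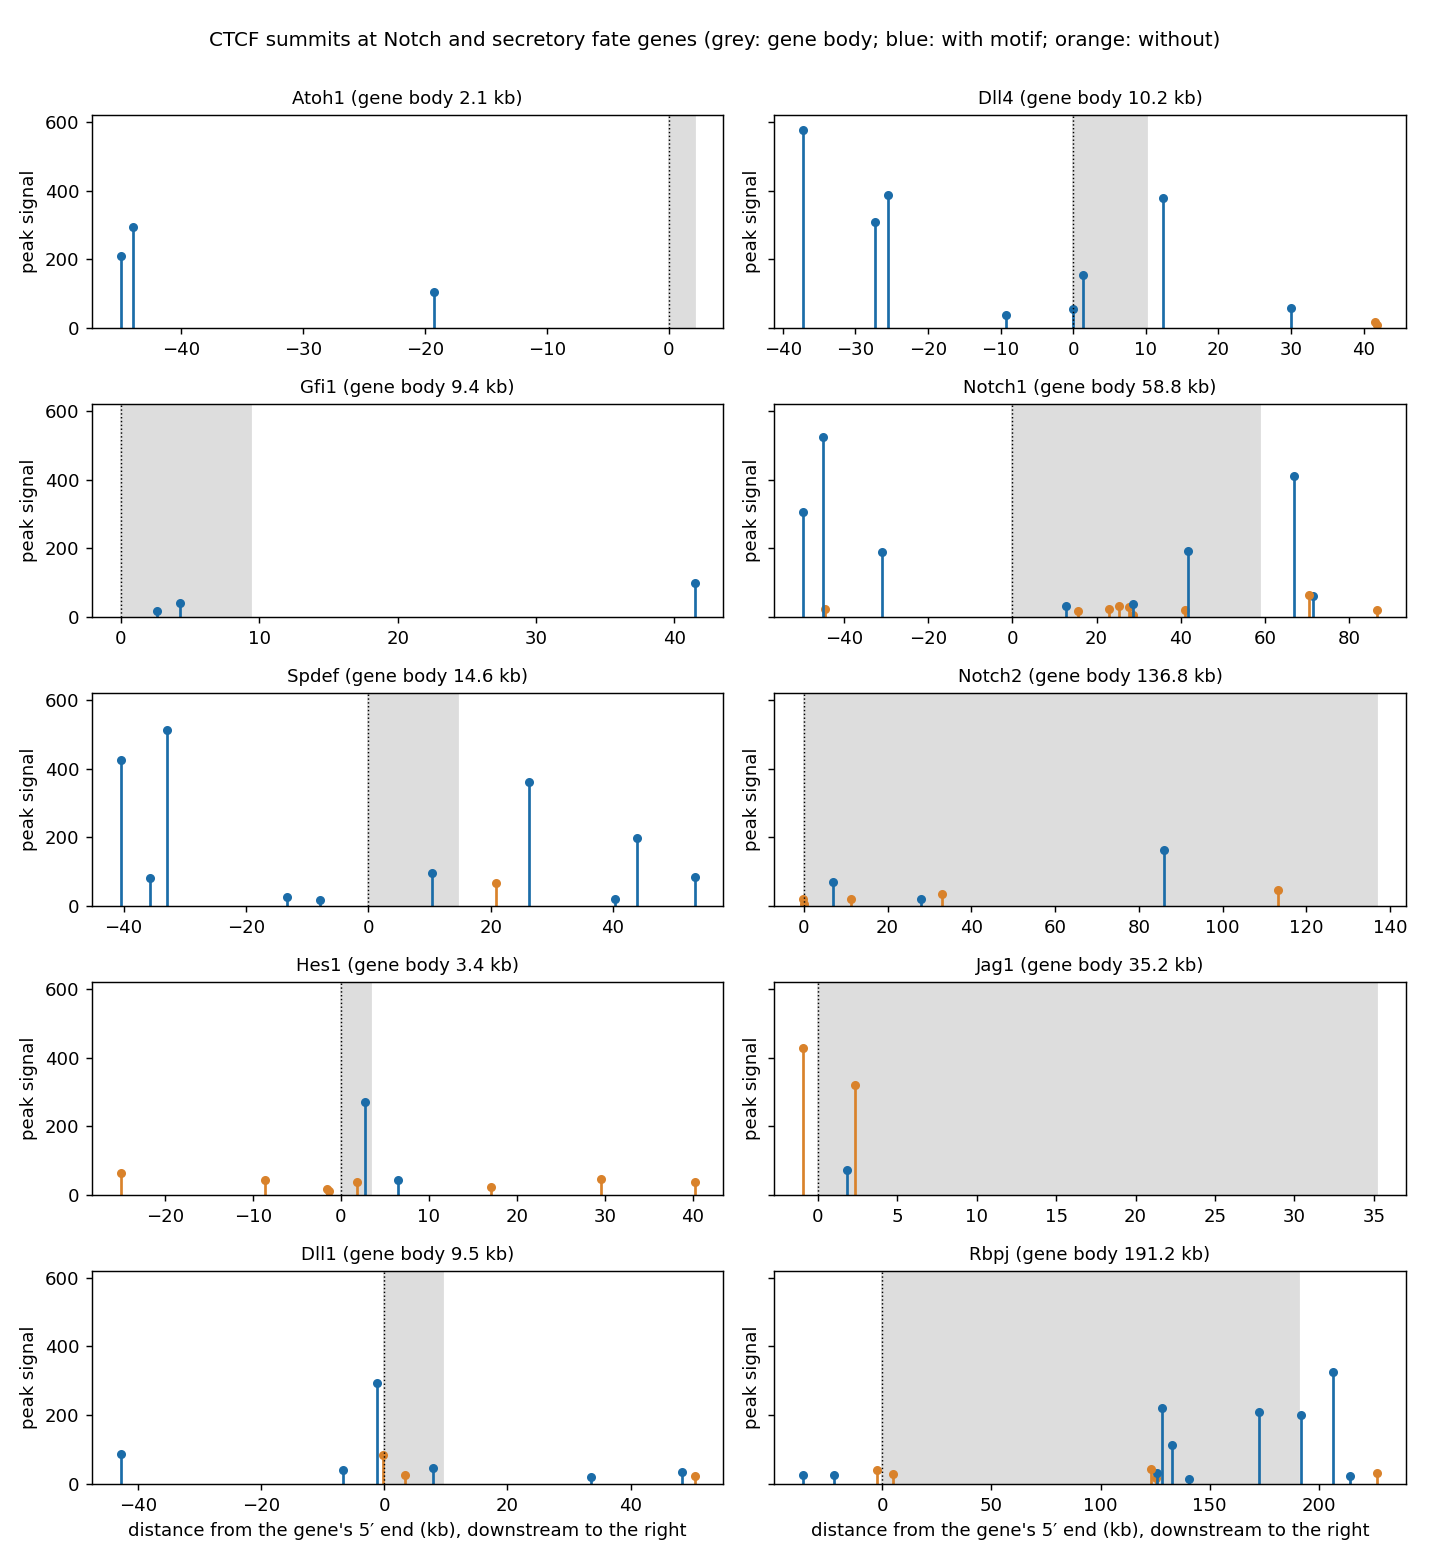
Each panel is 1 gene: the x axis is the distance in kb from its 5′ end, the y axis the authors' peak signal in the optimal list, and each stem 1 summit, blue with a CTCF motif within 100 bases and orange without. The grey band is the gene body; Dll4, Notch1 and Spdef reach 577, 524 and 513 away from their bodies, Jag1 has its 2 orange peaks of 429 and 321 at its 5′ end, and Atoh1 has no stem within 19.3 kb.

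The nearest summit lay within 10 kb of a TSS in 9 of 10 genes, where 73.0% of the 21755 protein-coding genes had one, and 88.7% of those genes had a summit in the window used here. Within 1 kb of any TSS there was a summit at 9 of 10 genes, against 45.7%. Counting only the starts of protein-coding transcripts, a choice made after the positions were seen, left 8 of 10 against 42.1%, because the Spdef summit near a start lay at a retained-intron transcript inside the gene. With transcripts tagged basic in GENCODE alone, a smaller set, 7 of 10 had a summit within 1 kb of a start. The share over all genes was not computed for that set. The genes had a median of 3.5 annotated starts, with 12 at Rbpj and 11 at Notch1, and protein-coding genes a median of 3. The window count is thus near the background, and the 1 kb count lies above it in 10 genes that are not replicates of each other.

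Most promoter summits, like most of the 89, did not exceed the median signal of the optimal list. Of 16 summits within 1 kb of a start of their gene, 5 exceeded that median, against 33 of all 89. The same share over all promoter summits of the list was not computed. A motif was held by 8 of the 16, against 53.3% of promoter summits in the list. Of the same 16, 5 lay only at starts of retained-intron or noncoding transcripts and 11 at starts of protein-coding ones. A further 7 of the 23 summits classed as promoter lay at other genes inside the windows, such as Vps18, Pacsin1 and Sec16a.

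Summit density varied among the genes. Notch1 had 11.04 summits per 100 kb of window, Spdef 9.89, Hes1 9.81, Dll4 9.73 and Dll1 8.30. Rbpj had 5.37, Notch2 4.28, Atoh1 3.0, Gfi1 2.95 and Jag1 2.30. The median of the 10 was 6.83 and that of all protein-coding genes 5.00, with 6 of the 10 above the latter. The order at both ends depended on the list. In the strongest 73465 peaks of replicate 1 alone Jag1 had 5 summits, or 3.83 per 100 kb, Gfi1 was lowest with 1.97 and Hes1 was highest with 12.8. In those of replicate 2 alone Jag1 had 6 summits, or 4.59 per 100 kb, Gfi1 was lowest with 2.95 and Notch1 was highest with 12.3. These are counts of called peaks in 1 tissue, and no error over samples can be given for a list made from both replicates.

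**Figure D2:**
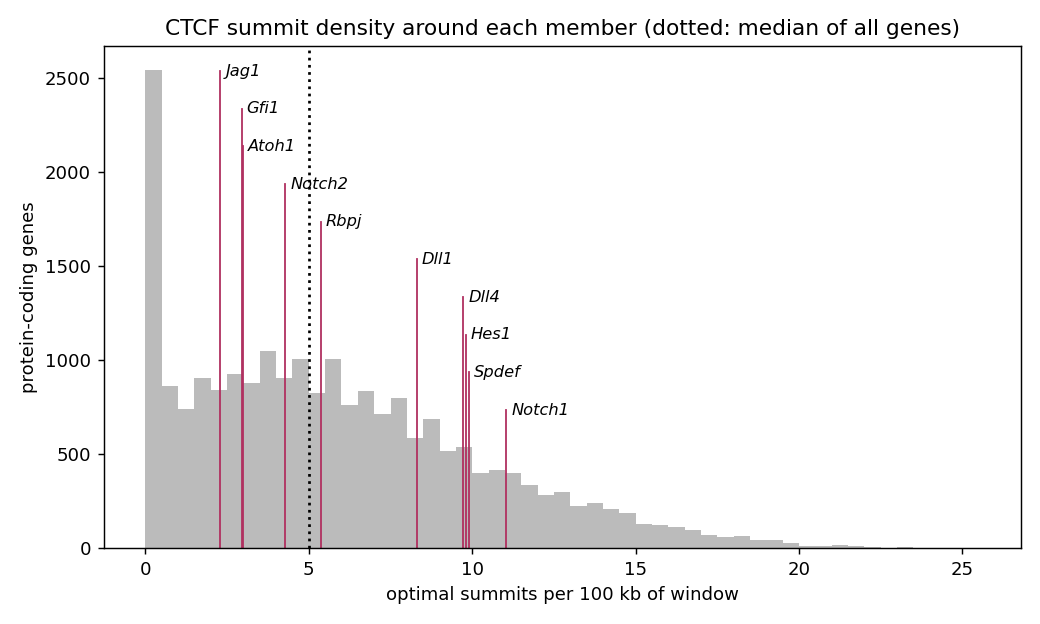
Optimal CTCF summits per 100 kb of window (x axis) for the 21755 protein-coding genes (grey histogram, y axis: number of genes), with each of the 10 genes as a red line and the median of all genes, 5.00, dotted. The genes spread from 2.30 at Jag1 to 11.04 at Notch1 in this list, and in each replicate alone Gfi1 and not Jag1 was lowest; line heights only separate the names.

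Atoh1, the basic helix-loop-helix factor required for goblet, Paneth and enteroendocrine cells, was the 1 gene with no summit within 10 kb of its TSS. The gene (ENSMUSG00000073043.5) covers chromosome 6 from 64729125 to 64731245, and its nearest summit lay 19.3 kb upstream in intergenic sequence, with a signal of 106 in the optimal list, 44.0 in replicate 1 and 62.9 in replicate 2. Of all protein-coding genes, 80.5% had a summit at least as near. Its strongest summit, 43.9 kb upstream, had a signal of 293 in the optimal list, 148 in replicate 1 and 146 in replicate 2. The remaining summit, of 211, lay 45.0 kb upstream, 1.03 kb from the strongest one, and the motifs of the pair pointed away from each other. All 3 summits exceeded the median of the list, held a motif and were found in both replicates. The longer unfiltered lists added nothing that both replicates shared: over 500 bases from an optimal summit, 0 further peaks were called in both. The other 9 genes had from 3 at Dll4 to 16 at Notch2, in windows that were all longer.

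Gfi1, a zinc-finger repressor that favours goblet and Paneth over enteroendocrine cells, had 3 summits and the lowest maximum of the 10 genes. The gene (ENSMUSG00000029275.18) lies on chromosome 5 from 107716657 to 107726036 on the minus strand. Its nearest summit, in a coding exon 0.949 kb inside a start, had a signal of 17.9 in the optimal list, 6.71 in replicate 1 and 11.3 in replicate 2. A second coding-exon summit at 2.58 kb reached 40.9. The strongest summit, 39.8 kb downstream in an intron of Gm26692, had a signal of 101, with 48.0 in replicate 1 and 51.5 in replicate 2. Of all protein-coding genes, those without a summit included, 18.1% had a maximum no higher.

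Spdef, an ETS-domain factor of goblet and Paneth cell maturation, had 11 summits, all but 1 with a motif. The gene (ENSMUSG00000024215.14) covers chromosome 17 from 27714352 to 27728955 on the minus strand. The only summit in the gene body, 0.130 kb from the retained-intron start, had a signal of 95.7, with 51.9 in replicate 1 and 43.3 in replicate 2. From the starts of protein-coding transcripts the nearest summit was a weak one of 19.4, 7.93 kb upstream. The strong peaks flanked the gene on both sides: 513 at 32.9 kb upstream and 426 at 40.4 kb upstream, both in introns of D17Wsu92e, and 361 in an intron of Pacsin1, an endocytosis adaptor gene downstream of it. In the replicates the strongest of these had 249.8 and 264, so it was high in both. The motif in the gene body and the 4 motifs downstream of it all lay on the minus strand, so that their consecutive pairs were in tandem.

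Hes1, the Notch-induced repressor of Atoh1, carried its strongest peak inside the gene. The gene (ENSMUSG00000022528.8) lies on chromosome 16 from 30064384 to 30067796 on the plus strand. This summit lay in a coding exon, 1.84 kb from the start of the protein-coding transcript and 0.838 kb from an internal noncoding start, with a signal of 271 in the optimal list, 134.8 in replicate 1 and 135.2 in replicate 2. The nearest summit to a start, 0.099 kb from that internal one, had 38.4, with 22.3 in replicate 1 and 16.3 in replicate 2, and no motif. The contrast across the window was large, since the other 9 summits, of which only that of 38.4 lay in the gene body, ranged from 11.5 to 64.4. A motif was found at 2 of the 10 summits, the lowest share among the 10 genes.

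Dll1, a Notch ligand made by secretory precursors, had its main peak just upstream of the TSS. The gene (ENSMUSG00000014773.13) lies on chromosome 17 from 15367354 to 15376872 on the minus strand. The summit 0.247 kb upstream had a signal of 84.1 in the optimal list, 45.1 in replicate 1 and 39.3 in replicate 2, and held no motif. The strongest summit, 1.26 kb upstream in an exon of the noncoding gene A930024N18Rik, had 294, with 152 in replicate 1 and 146 in replicate 2, and its motif faced the TSS. Both peaks were thus on the upstream side within 2 kb, and the motif-bearing one was the higher in both replicates. The other 7 summits ranged from 21.2 to 89.3.

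Dll4, a second Delta-type ligand, lay among the strongest peaks. The gene (ENSMUSG00000027314.6) covers chromosome 2 from 119325784 to 119335962 on the plus strand. Its nearest summit, 0.092 kb upstream of the TSS, had a signal of 57.0 in the optimal list, 27.2 in replicate 1 and 29.1 in replicate 2. The strongest, 37.2 kb upstream at the promoter of Vps18, a gene of vesicle trafficking to lysosomes, had 577, with 267 in replicate 1 and 318 in replicate 2. It ranked 357 of 73465 in the optimal list, with ranks of 794 in replicate 1 and 118 in replicate 2. Peaks of 388 and 308 stood 25.5 and 27.3 kb upstream, 11.5 and 9.7 kb from Vps18, the nearest protein-coding gene to both. A peak of 379 stood 9.64 kb from an annotated start on the downstream side, 12.4 kb from the 5′ end of the gene. The gene itself thus had weaker peaks, of 57.0 and 154, between stronger ones on both sides. In its window 8 of 10 summits held a motif, and 6 lay nearer to another protein-coding gene.

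Notch1, the receptor that maintains intestinal stem and absorptive progenitor cells together with Notch2, had 17 summits, the most of the 10 genes. The gene (ENSMUSG00000026923.15) covers chromosome 2 from 26457903 to 26516663 on the minus strand and has 11 annotated starts. The nearest summit, 0.012 kb from a start and 0.014 kb from that of a protein-coding transcript, had a signal of 32.6 in the optimal list, 20.2 in replicate 1 and 15.2 in replicate 2. The strongest, 45.2 kb upstream of the most distant start and 18.2 kb from Egfl7, which encodes a secreted endothelial protein, had 524, with 269 in replicate 1 and 257 in replicate 2. With basic-tagged transcripts alone, which leave out distant starts, Notch1 kept 10 summits and its highest signal was 192. Summits inside the gene body were weak apart from an intronic one of 192, and of the 17 summits 8 held a motif and 5 exceeded the median of the list. A peak of 410 lay beyond the 3′ end in an intron of 0610009E02Rik, near Sec16a, a gene of protein export from the endoplasmic reticulum.

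Notch2, the other receptor, had the weakest promoter summit of the 10 genes. The gene (ENSMUSG00000027878.11) covers chromosome 3 from 98013527 to 98150361 on the plus strand. The summit 0.018 kb inside the TSS had a signal of 6.42, among the lowest of the optimal list, with 4.25 in replicate 1 and none in replicate 2 within 100 bases. A second summit, 0.174 kb upstream of a start, had 22.4, with 11.6 in replicate 1 and 11.2 in replicate 2. Neither held a motif. The strongest summit lay inside the gene, away from its starts, with 163 in the optimal list, 90.2 in replicate 1 and 71.7 in replicate 2.

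Jag1, a ligand of the Jagged type, had 3 summits. The gene (ENSMUSG00000027276.7) lies on chromosome 2 from 137081456 to 137116644 on the minus strand. The summit 0.931 kb upstream of the TSS had a signal of 429 in the optimal list, 217 in replicate 1 and 214 in replicate 2. The summit 2.33 kb downstream, in an intron, had 321, with 149.9 in replicate 1 and 168 in replicate 2. Both were strong in both replicates and neither held a motif. In the strongest decile of the optimal list 4.55% of summits lacked one, and in the next decile 7.42%. The third summit, 512 bases from the intronic one on the side of the TSS, had the weakest signal of the gene, 72.2, with 32.2 in replicate 1 and 39.7 in replicate 2, and the best-scoring match at Jag1. The sequences below are the 101 bases centred on each of the summits without a motif, printed on the plus strand of mm10 because these are the strongest peaks at the 10 genes without a recognised CTCF site. The first covers chromosome 2 from 137114265 to 137114365 and the second from 137117525 to 137117625.
Jag1 intronic summit: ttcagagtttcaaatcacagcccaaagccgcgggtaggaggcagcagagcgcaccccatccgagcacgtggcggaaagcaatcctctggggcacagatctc
Jag1 upstream summit: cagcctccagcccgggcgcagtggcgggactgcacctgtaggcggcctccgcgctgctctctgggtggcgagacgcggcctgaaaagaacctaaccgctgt

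No match to the matrix at the threshold was found within 200 bases of the upstream summit, where the best score was 9.25 against a threshold of 10.04, or within that distance of the intronic summit, where it was 5.86. That says only that these letters do not reach the threshold in these windows.

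Rbpj, the DNA-binding partner of the Notch intracellular domain, had 15 summits spread over the longest window, 279.6 kb. The gene (ENSMUSG00000039191.12) covers chromosome 5 from 53466152 to 53657362 on the plus strand and has 12 annotated starts. The nearest summit, 0.230 kb from a retained-intron start, had a signal of 209, with 97.0 in replicate 1 and 109 in replicate 2. At starts of protein-coding transcripts the summits had 18.0, 33.3 and 45.6, all below the median of the list. The strongest, 26.8 kb past the last start and beyond the gene, had 326, with 160.1 in replicate 1 and 166 in replicate 2. With basic-tagged transcripts alone 8 summits were kept and the highest was 221, the intronic summit 3.56 kb from a start.

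The strongest summit of each gene was either close to a start or distant. In 3 of 10 genes, Hes1, Dll1 and Jag1, it lay within 2 kb of a start, against 11.9% of the 19302 protein-coding genes with a summit in their window. In the other 7 it lay over 25 kb away, against 43.3%. In 5 of 10 the nearest start of a protein-coding transcript to it was the gene's own. The median of the 10 highest signals was 309.8, and that of those 19302 genes 396, with 4 of the 10 above the latter. The nearest start of a protein-coding transcript was the gene's own for 62 of the 89 summits, and the nearest start of any annotated gene, noncoding ones included, for 44. These counts of own starts, and that for the strongest summits, have no share over all genes beside them and only describe the windows. Just inside the edge of the window, a Notch1 summit of 305 stood at 49.8 kb and an Rbpj summit of 31.3 at 47.1 kb. Just outside it, a Notch1 summit of 35.4 stood at 52.4 kb and a Spdef summit of 41.7 at 52.9 kb. Strong peaks also lay a little further out, among them Notch1 summits of 509 at 53.5 kb and 315 at 53.6 kb.

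A CTCF motif was found at 54 of 89 summits (60.7%, 95% Wilson interval 50.3 to 70.2%), against 72.7% of the 73451 optimal summits on chromosomes 1 to 19 and X. Intervals here cover counting of peaks only, and peaks of 1 gene share their locus. On the chromosomes not used to train the matrix, which carry Gfi1, Rbpj, Spdef, Dll1 and Notch2, the share was 32 of 46 (69.6%, interval 55.2 to 80.9%), against 73.0% of the list there, so the gap was small and within the interval. On the even-numbered chromosomes, which carry Dll4, Notch1, Jag1, Atoh1 and Hes1, it was 22 of 43 (51.2%, interval 36.8 to 65.4%), against 72.4%. At the stricter score that 1% of flanking windows reach, 18 of the 89 summits held a motif (20.2%), against 41.1% of the list. Above the median signal 30 of 33 summits held a motif, against 86.1% of the list, and at or below it 24 of 56 did, against 59.3%. The interval of the weaker peaks, 30.8 to 55.9%, does not reach the share of the list. That of the stronger peaks, 76.4 to 96.9%, includes it, and the difference between the strata was not tested. Hes1, with a motif at 2 of 10 summits, and Notch1, with 8 of 17, weigh on the weaker set. Only 1 summit of Hes1 and 5 of Notch1 exceeded the median, and the share without both genes was not computed. Among the other genes a motif was held by 3 of 3 summits at Atoh1 and at Gfi1, 10 of 11 at Spdef and 8 of 10 at Dll4. It was held by 10 of 15 at Rbpj, 6 of 9 at Dll1, 3 of 8 at Notch2 and 1 of 3 at Jag1. The lower share was thus not common to all 10 genes. At the 3 secretory factors 16 of 17 summits held a motif and at the 7 Notch pathway genes 38 of 72, a split chosen after the values were seen and resting on Spdef for 10 of the 16. Of the summits classed as promoter 12 of 23 held a motif, against 53.3% in the list.

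**Figure D3:**
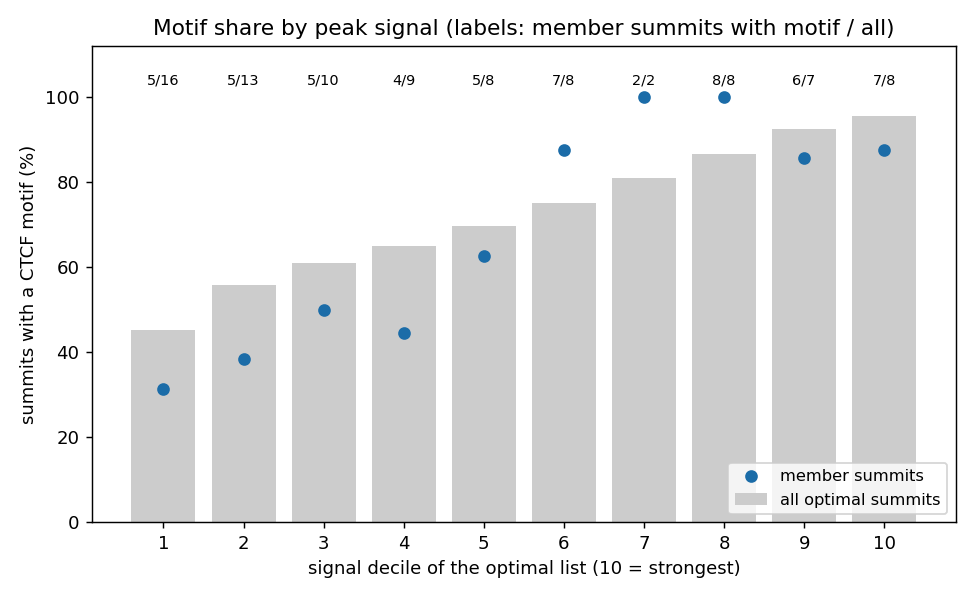
Share of summits with a CTCF motif (y axis, %) by signal decile of the optimal list (x axis, 10 is the strongest), as grey bars for all optimal summits and blue points for those at the 10 genes, whose counts are written above. Points lie under the bars in deciles 1 to 5, where 24 of 56 held a motif, and above them in deciles 6 to 8; the missing one in each of deciles 9 and 10 is a Jag1 summit.

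The sites also differed from the list in base composition and repeats. Peaks at the 10 genes had a median GC content of 55.2%, against 48.9%. Of the 54 motif sites, 5 lay wholly in soft-masked repeats (9.26%, Wilson interval 4.02 to 19.9%), against 24.2% of motif sites of the list. A CpG, where DNA methylation can fall, was present in 23 of the 54 sites, against 37.4%, and that difference is within the interval of 30.3 to 55.8%. The part of GC content in the lower repeat share was not tested.

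Motif strands matter because loops tend to form between motifs that face each other. Of 44 pairs of consecutive motif-bearing summits in the windows, 8 faced each other, 11 pointed apart and 25 lay in tandem. In the series the shares were 23.2% convergent, 24.0% divergent and 52.8% tandem, and each falls in the Wilson interval of the 10 genes. The convergent share at these genes was 18.2%, with an interval of 9.51 to 32.0%. Relative to the TSS, 28 of 54 motifs faced it.

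RefSeq promoter windows, 250 bases before to 50 after a start on GRCm38.p6, were available for 9 of the 10 genes in 12 windows, and Hes1 was the gene not matched. A summit lay in 4 of them, against 11.9% of the 32619 windows of this length on chromosomes 1 to 19 and X. In 2, at Notch1 and Dll4, the summit came with its motif inside the window, against 5.06%. These are few windows, and some belong to 1 gene. Over all 32851 promoters of this length in the table, 10.9% held a match at the same threshold on either strand, whether or not a summit lay there. The 250 bases before the start are shown for this pair, a receptor and a ligand, because each had summit and motif in its window. The 19 matched bases are in capitals. The Notch1 sequence is chromosome 2 from 26503823 to 26504072 on the minus strand, and the Dll4 sequence is chromosome 2 from 119325534 to 119325783 on the plus strand.
Notch1 promoter: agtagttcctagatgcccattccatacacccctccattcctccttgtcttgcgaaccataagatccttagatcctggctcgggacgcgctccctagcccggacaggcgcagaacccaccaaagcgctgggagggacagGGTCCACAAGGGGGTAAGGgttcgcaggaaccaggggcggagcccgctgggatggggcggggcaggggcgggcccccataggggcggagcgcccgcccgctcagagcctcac
Dll4 promoter: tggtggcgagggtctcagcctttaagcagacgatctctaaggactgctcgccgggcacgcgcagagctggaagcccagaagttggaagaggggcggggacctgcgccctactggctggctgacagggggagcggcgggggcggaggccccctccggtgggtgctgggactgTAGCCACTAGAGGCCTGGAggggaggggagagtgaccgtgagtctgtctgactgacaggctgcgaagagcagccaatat

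In both, the motif lay on the strand of the gene and pointed to the start. Their scores, 11.4 at Notch1 and 10.2 at Dll4, were just above the threshold of 10.04. The median score over the 54 motif-bearing summits was 14.0, and their median distance from motif to summit 8 bases. The distance was 89 bases at Notch1, the largest of the 54, and 22 at Dll4. Within 200 bases of the Dll4 summit the best match scored 11.1. Both peaks were modest in both replicates, as given above for each gene.

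The replicates were compared summit by summit. Of the 89 summits, 83 had a summit of both replicate lists within 100 bases (93.3%, Wilson interval 86.1 to 96.9%), against 97.4% of the optimal list. The 6 without were 3 at Notch1 and 1 each at Hes1, Notch2 and Rbpj, and all had optimal signals of 27.7 or lower. Every one of the 89 had an overlapping interval in both lists. Across the 83 summits the ranks in the 2 lists had a Spearman correlation of 0.933, given as a description, since both libraries share genome, tissue and peak calling; it was 0.959 over 71526 optimal summits. The same interval was in the authors' conservative list for 71 of 89 (79.8%), against 87.1% of the optimal list.

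Other genes of the pathways gave a wider setting, from lists drawn up by function with earlier results of these data known. Of 46 further Notch pathway genes, 43 had a summit within 10 kb of a start and 28 within 1 kb, a share of 60.9% for the latter. Of 30 further secretory lineage genes, 25 had one within 10 kb and 15 within 1 kb. Among the Notch genes the highest signals within 10 kb were 679.6 at Rfng, which encodes a glycosyltransferase that modifies Notch, 645 at Psen2, a subunit of the protease that releases the Notch intracellular domain, and 548 at Hey1, a Notch target repressor. Among the secretory genes they were 485 at Ets2, an ETS-domain factor, 466 at Clca1, a goblet cell secreted protein, and 452 at Tff3, the goblet cell trefoil peptide. Itch, a ubiquitin ligase acting on Notch, and Aph1a, another subunit of that protease, had nearest summits at 27.1 and 10.7 kb. Neither thus had a summit within 10 kb, though Aph1a had 11.9 per 100 kb of window. Nor did one lie within 10 kb of Bhlha15, a factor of secretory cell architecture, or Neurod1, an enteroendocrine factor, with nearest summits at 12.3 and 42.7 kb. The median density was 8.47 summits per 100 kb for the Notch list and 5.54 for the secretory list, against 5.00 for all protein-coding genes.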

How the data were processed

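CTCF peaks were analysed from 2 replicates of 1 group. Per the deposited file descriptions, each replicate list was made from that replicate's alignment and a further file of unstated role, the pooled list from both alignments, and the optimal and conservative lists from those lists, on mm10. The choice of aligner, peak caller, versions and reproducibility threshold is not given in the sources used here. The signal is the authors' enrichment value per peak, of unstated normalization, and the summit is the start plus the offset the authors deposited. The lists give no read counts, so depth is unknown. The optimal list held 73465 peaks and each replicate list 300000.

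The genes, lists and tests were chosen with earlier results of these data known. All 10 genes are named with their nearest and strongest summit; of each further list, the 3 strongest within 10 kb and the first 2 without a summit there. Summits were annotated with GENCODE M21 on the GRCm38.p6 sequence, whose chromosome names and lengths were compared first. The motif matrix was trained on 5000 peaks, the strongest outside the gene windows on even-numbered chromosomes. Training took 6 rounds and a pseudocount of 1, with the score that 5% of windows 1 kb away reach as threshold. Counting and scanning were tested on simulated data. Python 3.11.15, numpy 2.4.6, scipy 1.17.1, pysam 0.24.0, samtools 1.23.1 and matplotlib 3.10.9 were used. Alternatives were other lists, each replicate alone, other windows, transcripts, motif and matching rules. Some items are not reported here.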

Additional observations from a re-analysis of the deposited data

How the results depend on the processing

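The 9 of 10 genes with a summit within 10 kb stayed between 7 and 10 under every alternative run. The conservative list, basic-tagged transcripts and each replicate alone (its strongest 73465 peaks) kept the summit count within 1.5 times of 89 and the motif share within its interval. In the conservative list the motif share was 70.1%, at the top of that interval, and the share over that whole list was not computed. Leaving out a replicate gave 90 to 93 summits, motif shares of 57.8 to 60.2%, median percentiles of 31.7 to 36.5, 9 genes within 10 kb and 8 to 9 with a promoter summit. Peaks above the median signal left 33 summits, 5 genes with a promoter summit, a motif share of 90.9% and a median percentile of 49.7 within the shortened list, and the conservative list gave a percentile of 42.6. Windows of 10 kb and 100 kb gave 49 and 163 summits, and the 10 kb window a median percentile of 30.1. A promoter of 200 bases left 5 genes with a promoter summit, basic-tagged transcripts 7 and the conservative list 8. The motif threshold that 1% of flanks reach left a share of 20.2%. Matching in both replicates rose to 100% with any overlap and fell to 71.9% among the strongest 73465 peaks of each list. Added after seeing the data, a motif window of 200 bases gave 62.9%. The summits whose nearest protein-coding gene, by any start, was their own numbered 64, with 62 by starts of protein-coding transcripts. Chromosomes not used in training gave a motif share of 69.6%. Per gene, the summit count stayed within 1.5 times for all 10 genes in the conservative list and for 8 with basic transcripts; Jag1 had 5 or 6 summits in single replicates against 3. No paired analysis was possible because there is 1 group and no test between groups. Without read counts, a missing weak peak may lie below the calling limit.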
